A study of Saccharomyces cerevisiae with 21 samples.

Results

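The iron uptake genes of the budding yeast Saccharomyces cerevisiae, 10 of the 6571 coding sequences counted in each library, were followed through all 7 groups of a poly-A RNA-seq series. They were taken by name: FET3 (YMR058W), FTR1 (YER145C), FIT1 (YDR534C), FIT2 (YOR382W), FIT3 (YOR383C), ARN1 (YHL040C), ARN2 (YHL047C), SIT1 (YEL065W), FRE1 (YLR214W) and FRE2 (YKL220C), and the choice rested on their known role, not on a measured value. A strain with a humanized form of Yhc1, the yeast homologue of the U1 snRNP protein called U1-C in humans, and its wildtype were first sampled at high density, in post-log phase, at an OD600 near 8 for the humanized and near 5 for the wildtype cells. In a later experiment the humanized strain and the wildtype were sampled again at low density, at an OD600 near 0.4. A Luc7 triple mutant carried the label low OD as well, and its mutations are not described further in the labels. A strain with a degron on Luc7, another U1 snRNP protein, was sampled after treatment with beta-estradiol and IAA (auxin) for 6 hours and without IAA. The labels give no density for the degron cells, so their levels stand beside those of the other groups without a match in density. Each of the 7 groups held 3 libraries. The labels do not say that these came from separate cultures, so the p-values measure the spread between the libraries, which may be technical. The medium is given as YPD or dropout medium without saying which group had which, and iron or copper supply is not stated for any group. High and low density were separate experiments, so density and experiment cannot be told apart.

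Yeast takes up iron along a few parallel routes, and these genes belong to them. On the plasma membrane the reductases Fre1 and Fre2 reduce ferric iron and cupric copper, the multicopper ferroxidase Fet3 oxidises ferrous iron, and the permease Ftr1 carries it inward. The cell wall mannoproteins Fit1, Fit2 and Fit3 retain iron bound to siderophores, and the carriers Arn1, Arn2 and Sit1 take up such iron-siderophore complexes. When mitochondrial iron-sulfur cluster synthesis signals low iron, the transcription factors Aft1 and Aft2 bind a core of TGCACCC, or its shorter form GCACCC, before these genes and raise their transcription. Fet3 needs copper, and the copper-sensing factor Mac1 acts on FRE1, FRE7 and the copper transporter gene CTR1 through elements with the core TTTGCTCA or TTTGCGCA.

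The sequence before the start codon differed between FRE1 and the other 9 genes. Within 500 bases before the start codon (R64, NCBI RefSeq genome, both strands searched), TGCACCC or its reverse complement GGGTGCA was found before 9 of the 10 genes, against 139 of 5865 genes (2.37%) with such a window. FIT2 had 4 copies, FTR1, FIT1 and FIT3 had 2 each, and FET3, ARN1, ARN2, SIT1 and FRE2 had 1. Of 26 further listed iron and copper genes 13 had TGCACCC. FRE1 held neither TGCACCC nor GCACCC in this window, and held TTTGCTCA 2 times, ending 262 and 279 bases before the start codon. The shorter CACCC was present 1 time before FRE1. It was present before all 10 genes and before 1983 of 5865 (33.8%). TTTGCTCA was present before 151 of 5865 genes (2.57%) and TTTGCGCA before 52 (0.887%). CTR1 had 2 copies of TTTGCTCA, and FRE7 had 3 matches to TTTGCGCA, a pair of them overlapping. FTR1 held 1 copy of TTTGCTCA as well. A match is a description of the letters in the window and not evidence of binding. The following stretches carry one match each in capitals with 20 bases on either side, on the strand of the gene, and are shown for genes whose values are followed library by library below. Further copies in the same stretch are in lower case.
FET3 (chrXIII:388551-388597): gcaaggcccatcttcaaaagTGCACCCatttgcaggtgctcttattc
FIT1 (chrIV:1505056-1505102): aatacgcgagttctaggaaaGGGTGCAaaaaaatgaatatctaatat
FIT3 (chrXV:1061213-1061259): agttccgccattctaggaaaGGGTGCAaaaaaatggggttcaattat
FIT2 (chrXV:1059245-1059291): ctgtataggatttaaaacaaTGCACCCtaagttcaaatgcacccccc
SIT1 (chrV:27449-27495): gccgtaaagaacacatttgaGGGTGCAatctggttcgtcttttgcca
FRE1 (chrXII:568261-568308): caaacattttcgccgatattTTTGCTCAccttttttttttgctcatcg
CTR1 (chrXVI:785854-785901): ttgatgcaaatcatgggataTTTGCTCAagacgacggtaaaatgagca
FRE7 (chrXV:40551-40598): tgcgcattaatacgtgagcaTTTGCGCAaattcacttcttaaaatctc

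The windows of FIT1 and FIT3 shared a run of 25 identical bases that holds the GGGTGCA shown above, whereas the next longest run shared by any pair of the 10 windows was 11 bases. Each of the 10 genes has 1 uninterrupted coding segment, without an intron, and overlaps no other gene annotated in R64. In R64, the coding sequences lie at chrXIII:388822-390732 (FET3, plus strand), chrV:460526-461740 (FTR1, minus), chrIV:1503314-1504900 (FIT1, minus), chrVIII:19088-20971 (ARN1, minus), chrVIII:8351-10213 (ARN2, minus), chrV:27657-29543 (SIT1, plus), chrXII:568567-570627 (FRE1, plus) and chrXI:9091-11226 (FRE2, minus). FIT2 (chrXV:1059531-1059992, plus strand) and FIT3 (chrXV:1060441-1061055, minus strand) are convergent neighbours 448 bases apart. Among coding sequences annotated in R64, shared 31-base words were found only in FRE2, where 0.19% of them also occur in FRE3. The 676 counted sequences without a match in R64 were not searched.

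Libraries held 28.5 to 46.8 M assigned reads, and the iron uptake genes together took 0.0955% to 0.213% of them, with at least 204 reads for any of these genes in any library. YHC1 averaged 28.9 ± 2.47 and 37.1 ± 1.96 normalized CPM (CPM after TMM scaling over all 21 libraries) in humanized and wildtype cells at high density (SD, n = 3, here and below), and 30.7 ± 1.38 and 37.6 ± 2.78 at low density. The counted sequence is that of yeast YHC1. LUC7 RNA had 101–145 normalized CPM with IAA and 79.1–128 without, and the degron acts on the protein, so this does not check the depletion. URA3 averaged 587 ± 57.2 and 536 ± 61.8 normalized CPM in humanized and wildtype cells at high density and 889 ± 11.9 and 740.5 ± 56.9 at low density. It was at 0 for the triple mutant and reached at most 23.5 in a degron library. LEU2 was at 0 in the humanized and wildtype strains and averaged 736 ± 189 in the triple mutant, so the strains differ in these markers. Summed normalized CPM of 6 genes known to rise after log phase (HSP12, HSP26, CTT1, HXK1, SPI1 and GAD1) averaged 1215 ± 141 in humanized and 436 ± 129 in wildtype cells at high density. The low density averages were 255 ± 8.92 for humanized cells, 444 ± 30.1 for the triple mutant and 194 ± 10.5 for wildtype cells, and in the degron strain 2411 ± 497 with IAA and 496 ± 50.6 without. The 6 genes did not all move as their sum. SPI1 averaged 20.8 in humanized and 17.5 in wildtype cells at high density, against 69.6 and 53.0 at low density. HSP12 averaged 2.93 and HSP26 8.07 in the triple mutant, against 9.80 and 20.6 in wildtype cells at low density. By density edgeR called 3 higher and 1 lower in wildtype cells, and 4 and 1 in humanized cells. In the triple mutant 4 were called higher and 2 lower, and with IAA 5 and 0.

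Per length, FET3 was the most abundant of these transcripts in wildtype cells at low density, with 271 ± 25.3 TPM. FIT3 (219 ± 49.5), FIT2 (188 ± 65.1) and FTR1 (172 ± 20.9 TPM) followed. FRE1 had 101 ± 2.07 TPM, the siderophore carriers 49.7 (ARN2), 41.1 (SIT1) and 30.4 (ARN1), and FRE2 5.87. FIT1 was the scarcest, with 4.36 ± 0.217 TPM; the order between genes is not a test. On the normalized CPM scale, which compares a gene between libraries, 8 of the 10 genes had their highest group mean in wildtype cells at low density. The exceptions were FTR1, highest with IAA, and FIT1, highest in the triple mutant. On the TPM scale the degron cells with IAA came first for FET3, FTR1, ARN1, SIT1 and FRE2, so the top of the order depends on the scale. The highest group mean over the lowest was 7.80 for FIT2, 4.24 for FIT3, 3.32 for FRE1 and 3.05 for SIT1 in normalized CPM, and 1.61 for FRE2, the steadiest. In TPM these ratios were 5.68, 3.18, 2.83, 3.49 and 1.69.

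**Figure D1:**
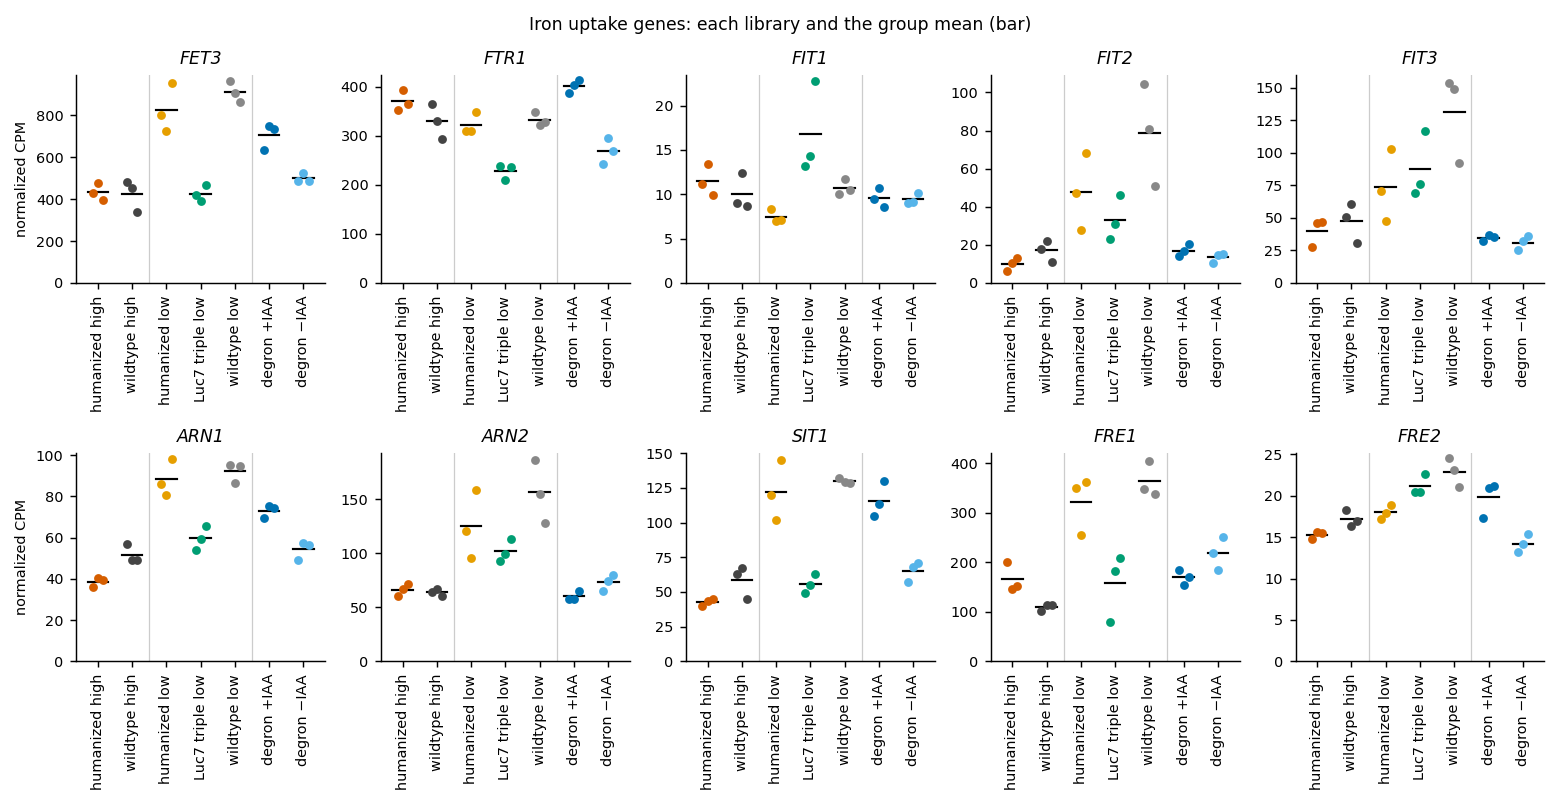
Normalized CPM (vertical axis, from 0) of the 10 iron uptake genes in each of the 21 libraries (points) with the group mean (bar). Most genes stand lower at high than at low density, and FTR1 and FIT1 do not. The triple mutant lies below the low density wildtype without overlap in FET3, FTR1, FIT2, ARN1, ARN2, SIT1 and FRE1, and above it in FIT1.

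Starting with the high-affinity iron transporter, FET3 had 427, 479 and 395 normalized CPM in humanized and 480.1, 455 and 338 in wildtype libraries at high density. At low density it had 802, 723 and 952 in humanized cells, 418, 389 and 469 in the triple mutant and 963, 908 and 862 in wildtype cells. In the degron strain it had 635, 749.9 and 733 with IAA and 486, 526 and 484 without. The low density libraries of humanized and wildtype cells lay above every high density library, and the triple mutant lay within the range of the high density wildtype. FTR1, the partner of FET3, had 353, 393 and 365 normalized CPM in humanized and 365, 331 and 294 in wildtype libraries at high density. Its low density values were 309.6, 309 and 348 in humanized cells, 239, 209.6 and 236 in the triple mutant and 348, 321 and 328 in wildtype cells. With IAA it had 387, 403 and 414 and without IAA 242, 295 and 268. The FTR1 mean was thus lowest in the triple mutant and highest with IAA, and in wildtype cells the densities overlapped.

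The balance of both transcripts differed between the densities. FET3 over FTR1, each in TPM, was 0.669 ± 0.0237 in humanized and 0.754 ± 0.0791 in wildtype cells at high density, against 1.45 ± 0.113 and 1.58 ± 0.0640 at low density. The densities did not overlap in either strain, and an exact two-sided permutation test of 3 against 3 libraries cannot give a p below 0.1. In the triple mutant the ratio was 1.07 ± 0.0830 (range 0.987–1.15), below the 1.51–1.63 of wildtype cells at low density. It was 0.952 ± 0.0521 with IAA and 1.02 ± 0.0503 without, and there the ranges overlapped. In the fit across all genes FET3 fell at high density in wildtype cells (log2 fold change −1.11 ± 0.13 (SE), adjusted p = 4.24e-05) and in humanized cells (−0.93 ± 0.13, adjusted p = 0.000107). FTR1 was not called in either, with −0.02 ± 0.08 (adjusted p = 0.826) in wildtype and +0.20 ± 0.08 (adjusted p = 0.0543) in humanized cells. The FTR1 value in humanized cells passed the threshold upward in other settings (adjusted p = 0.0428 in DESeq2, 0.00106 on library totals), and without humanized replicate 1 at high density, humanized replicate 3 at low density, or wildtype replicate 1 or 3 at high density (0.0242 to 0.0496).

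**Figure D2:**
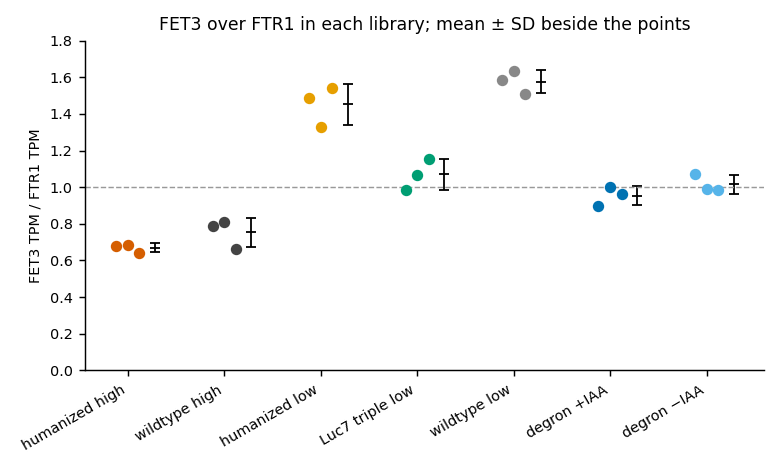
Ratio of FET3 to FTR1 TPM in each library (points) with mean ± SD of the group beside them; the dashed line marks equal TPM. The 6 high density libraries lie at or below 0.811, the 6 humanized and wildtype libraries at low density at or above 1.33.

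Among the cell wall mannoprotein genes, FIT2 varied most. It had 6.37, 10.7 and 13.2 normalized CPM in humanized and 18.0, 22.3 and 11.2 in wildtype libraries at high density, against 47.2, 27.5 and 68.5 in humanized and 105, 80.8 and 51.1 in wildtype libraries at low density. The triple mutant had 23.0, 30.8 and 45.9, and the degron strain 13.9, 16.8 and 20.3 with IAA and 10.5, 14.7 and 15.4 without. Every low density library lay above every high density library, and above the degron libraries, whose density is not given. FIT3, its convergent neighbour, had 27.7, 45.7 and 46.6 normalized CPM in humanized and 50.5, 60.7 and 30.8 in wildtype libraries at high density, against 70.3, 47.7 and 103 in humanized and 154, 149 and 92.5 in wildtype libraries at low density. The triple mutant had 68.8, 76.4 and 117, the degron strain 32.5, 37.1 and 35.2 with IAA and 25.3, 32.1 and 35.9 without. Within each strain FIT3 lay lower at high density without overlap, as FIT2 did. FIT1, on another chromosome, did not share this order. It had 13.2, 14.3 and 22.7 normalized CPM in the triple mutant and 10.1, 11.7 and 10.5 in wildtype cells at low density. It had 11.2, 13.4 and 9.91 in humanized and 9.06, 12.4 and 8.69 in wildtype cells at high density, against 8.29, 7.02 and 7.08 in humanized cells at low density. The degron strain had 9.43, 10.7 and 8.58 with IAA and 8.96, 9.15 and 10.1 without. The triple mutant was the highest group and the humanized cells at low density the lowest.

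The siderophore carriers ARN1, ARN2 and SIT1 shared the order by density and parted in the degron strain. SIT1 had 39.8, 43.6 and 44.7 normalized CPM in humanized and 63.3, 67.1 and 44.9 in wildtype libraries at high density, against 120.2, 102 and 145 in humanized and 132, 129.5 and 129 in wildtype libraries at low density. It had 49.2, 55.3 and 63.0 in the triple mutant, 104, 114 and 129.7 with IAA and 57.2, 68.0 and 70.8 without IAA. The triple mutant libraries thus lay in the range of the high density wildtype, and those with IAA reached the low density humanized cells. ARN1 ranged over 35.8–40.5 normalized CPM in humanized and 48.9–56.9 in wildtype cells at high density, and 80.7–97.9 and 86.3–95.4 at low density. It ranged over 54.1–65.8 in the triple mutant, 69.2–75.3 with IAA and 49.2–57.3 without. ARN1 therefore followed SIT1 with smaller differences. ARN2 ranged over 60.7–71.2 and 60.3–67.0 normalized CPM in humanized and wildtype cells at high density, 95.4–158 and 128–186 at low density. The triple mutant held 92.3–113, and the degron strain 57.6–65.3 with IAA and 65.1–79.3 without. It was the one carrier gene with a lower mean with IAA than without.

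Of the reductase genes, FRE1 differed more between the densities than FRE2. FRE1 had 199.5, 145 and 152 normalized CPM in humanized and 102, 113 and 113 in wildtype libraries at high density, against 349.6, 254 and 362 in humanized and 348, 405 and 338 in wildtype libraries at low density. It had 78.8, 183 and 209 in the triple mutant, 185, 153 and 169.8 with IAA and 219, 184 and 250.5 without. Replicate 1 of the triple mutant stands far below the others of its group. FRE2 stayed between 13.1 and 24.6 normalized CPM in all 21 libraries, with 14.7–15.7 and 16.4–18.3 in humanized and wildtype cells at high density, 17.2–18.9 and 21.037–24.6 at low density. The triple mutant held 20.5–22.7, and the degron strain 17.4–21.1 with IAA and 13.1–15.3 without.

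**Figure D3:**
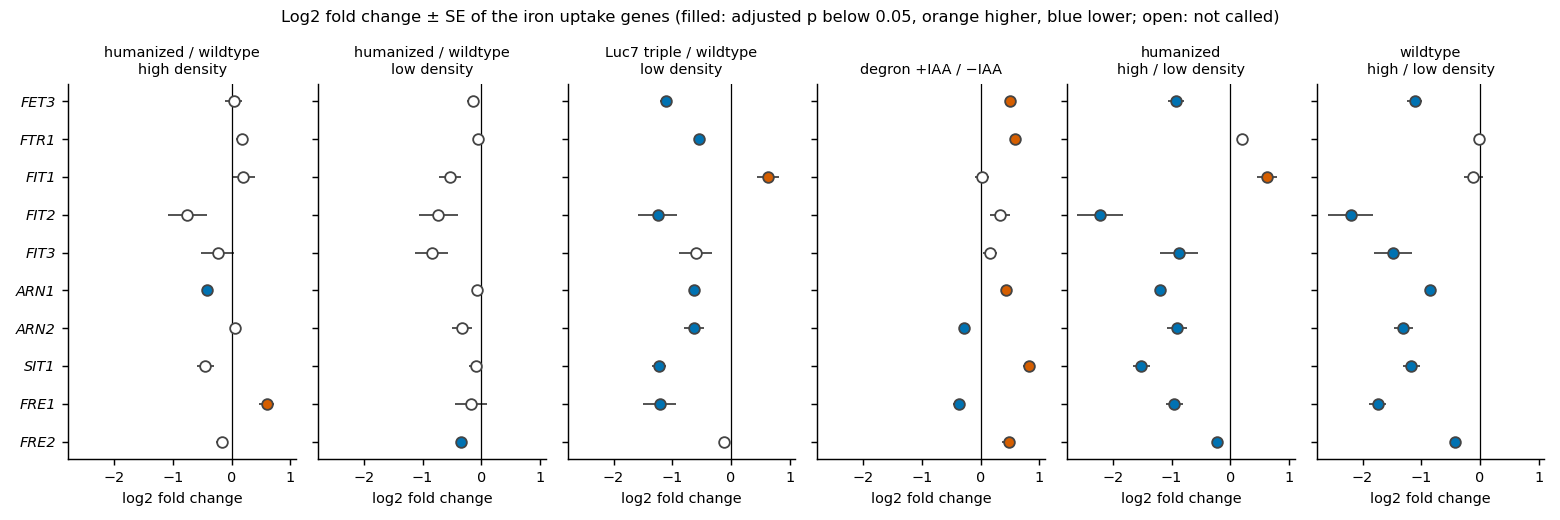
Log2 fold change with SE (horizontal axis) of the 10 iron uptake genes in 6 comparisons, 3 libraries per group; filled points passed an adjusted p of 0.05 in edgeR's quasi-likelihood test over all genes (orange higher, blue lower), open points did not. Both comparisons of density and the Luc7 triple mutant lean left, the degron comparison leans right, and humanized against wildtype cells show 1 filled point at low and 2 at high density.

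Most iron uptake transcripts were less abundant at high than at low density in both strains. In wildtype cells 8 of the 10 genes fell at high against low density, led by FIT2 (log2 fold change −2.20 ± 0.38, adjusted p = 0.00059), FRE1 (−1.74 ± 0.15, adjusted p = 2.24e-06) and FIT3 (−1.49 ± 0.32, adjusted p = 0.00283). ARN2 (−1.30), SIT1 (−1.17), FET3 (−1.11), ARN1 (−0.85) and FRE2 (−0.43) fell too, and no gene of the 10 rose at an unadjusted p under 0.05 either, nor did any pass in DESeq2. FIT1 (−0.11 ± 0.17) and FTR1 did not pass. Over all genes edgeR called 22.7% lower and 20.9% higher here, and the median log2 fold change was −1.14 over the 10 genes and +0.01 over all. On library totals without TMM factors these medians were −0.95 and +0.20. In humanized cells 8 fell and 1 rose, where 26.7% of all genes were called lower and 27.7% higher, with medians of −0.92 and +0.02. FIT2 (−2.22), SIT1 (−1.52), ARN1 (−1.19), FRE1 (−0.96), FET3 (−0.93), ARN2 (−0.91), FIT3 (−0.88 ± 0.32, adjusted p = 0.0357) and FRE2 (−0.23 ± 0.08, adjusted p = 0.0342) fell, and FIT1 rose (+0.62 ± 0.17, adjusted p = 0.00727). In humanized cells FIT3 lost its call without humanized replicate 1 or 2 at high density or 1 or 3 at low density (adjusted p = 0.0527 to 0.183), and FRE2 without humanized replicate 1 or 2 at high density or 2 or 3 at low density (0.0578 to 0.122). Without humanized replicate 3 at low density FIT3 was at −0.56, and on library totals FRE2 was at −0.01. In each strain the densities differed in the post-log markers given above, whose part in these results was not tested. In bulk RNA, fewer cells with a transcript and less of it per cell cannot be told apart.

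Other genes of iron use moved with density in part. TIS11, whose protein binds and destabilises transcripts of iron-using proteins when iron is scarce, fell at high density by 3.66 times in wildtype (log2 fold change −1.87 ± 0.23) and 2.32 times in humanized cells (−1.21 ± 0.23). The heme oxygenase gene HMX1 (−1.38 in wildtype, −1.14 in humanized cells) and ENB1, a further siderophore carrier gene (−1.22 and −1.35), fell in both as well. SMF1, for a manganese transporter, rose in both (+0.87 and +0.89). Over the 58 further genes listed for iron and copper, 15 were called higher and 19 lower in wildtype cells, and 18 and 16 in humanized cells with medians of −0.05 and +0.02. The iron-sulfur enzyme gene BIO2 (biotin synthase) fell in both (−0.81 and −1.27) while SDH2, for a subunit of succinate dehydrogenase, rose (+0.48 and +1.34). Of the regulators, AFT2 rose in both (+0.37 ± 0.10, adjusted p = 0.00805, and +0.84 ± 0.10, adjusted p = 1.68e-05), whereas AFT1 had −0.25 ± 0.08 (adjusted p = 0.0164) in wildtype and +0.02 ± 0.07 (adjusted p = 0.886) in humanized cells. The wildtype call of AFT1 was lost on library totals (−0.07, and +0.01 in limma on TPM), and without wildtype replicate 1 or 3 at low density or 1 at high density (adjusted p of up to 0.0736).

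The Luc7 triple mutant had less of most iron uptake transcripts than wildtype cells of the low density experiment. Of the 10 genes 7 fell and 1 rose, where edgeR called 26.5% of all genes lower and 28.3% higher; the median was −0.63 over the 10 genes and 0.00 over all. FET3 fell 2.15-fold (log2 fold change −1.11 ± 0.10, adjusted p = 9.72e-06), SIT1 2.34-fold (−1.23 ± 0.12, adjusted p = 1.74e-05), FIT2 2.38-fold (−1.25 ± 0.34, adjusted p = 0.00983) and FRE1 2.32-fold (−1.22 ± 0.28, adjusted p = 0.00394). ARN1 (−0.63 ± 0.09), ARN2 (−0.63 ± 0.17) and FTR1 (−0.55 ± 0.07) fell by less. FIT1 rose 1.55-fold (+0.63 ± 0.18, adjusted p = 0.0137), and without triple mutant replicate 3, the highest library, by +0.35 (adjusted p = 0.0355). FIT3 (−0.60 ± 0.28, adjusted p = 0.088) and FRE2 (−0.12 ± 0.08, adjusted p = 0.216) did not pass. FIT3 passed downward without triple mutant replicate 3 (adjusted p = 0.0365) or wildtype replicate 3 (0.0266), and FRE2 did so (−0.26, adjusted p = 0.0231) with an offset for length and GC content of the coding sequence. Leaving out any one library ended none of the 8 calls, and limma on TPM ended that of ARN2 (−0.46, adjusted p = 0.0592).

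Outside the 10 genes, TIS11 fell with them in the triple mutant (−1.14 ± 0.15, adjusted p = 0.000172), and AFT1 fell (−0.40 ± 0.08, adjusted p = 0.00152) while AFT2 had +0.05 ± 0.07 (adjusted p = 0.577). In limma on TPM AFT1 lost its call (−0.24, adjusted p = 0.135). The copper genes CTR1 (−1.23 ± 0.27), CTR2 (−0.61 ± 0.06) and CTR3 (−0.46 ± 0.12) fell, 3 of 6 in that list. Among 6 further reductase genes FRE7 (−0.89) fell and FRE5 (+0.88) and FRE8 (+0.71) rose most, with 2 of 6 in each direction. Of 10 other iron transport genes 5 fell and 3 rose, led by SMF1 (+0.72) upward and ENB1 (−0.57) and FET4 (−0.41), a low-affinity iron transporter gene, downward. Of 4 iron sparing genes HMX1 (+0.33) and the biotin transporter gene VHT1 (+0.42) rose. Of 10 genes for iron-requiring proteins 4 rose and 2 fell: LEU1, an enzyme of leucine synthesis, had −1.67 ± 0.10 and BIO2 −0.80 ± 0.05, and SDH2 had +0.77 ± 0.07. The triple mutant carried LEU2 reads and the wildtype none, and the part of that difference in LEU1 or in any iron gene was not tested. Over 58 listed genes 15 were called higher and 20 lower, with a median of −0.08.

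In the Luc7 degron strain several uptake genes were more abundant with than without IAA. Of the 10 genes 5 rose and 2 fell, in a comparison where edgeR called 34.0% of all genes higher and 34.3% lower; the medians were +0.38 over the 10 genes and +0.01 over all. SIT1 rose 1.77-fold (log2 fold change +0.82 ± 0.10, adjusted p = 3.24e-05), FTR1 1.49-fold (+0.58 ± 0.08, adjusted p = 7.15e-05), FET3 1.41-fold (+0.50 ± 0.08, adjusted p = 0.000189), FRE2 1.39-fold (+0.48 ± 0.11, adjusted p = 0.00242) and ARN1 1.34-fold (+0.43 ± 0.07, adjusted p = 0.000397). FRE1 (−0.36 ± 0.11, adjusted p = 0.0109) and ARN2 (−0.28 ± 0.08, adjusted p = 0.0129) fell, and FIT1 (+0.02), FIT2 (+0.33) and FIT3 (+0.17) did not pass. Leaving out any one library kept the 5 calls upward, whereas the 2 downward calls ended on library totals without TMM factors (adjusted p = 0.0595 for FRE1 and 0.101 for ARN2) and without replicate 3 of the cells lacking IAA (0.0583 and 0.0657), and that of ARN2 also without replicate 1 of those with IAA (0.0507). FIT2 passed upward without replicate 1 of the cells with IAA (+0.45, adjusted p = 0.0428) and on library totals (+0.44, adjusted p = 0.0343). In limma on TPM both FIT2 (+0.64, adjusted p = 0.0150) and FIT3 (+0.43, adjusted p = 0.00349) passed upward, and with the offset FIT3 was at −0.18 without passing. Of the post-log markers, HSP26 averaged 1541 ± 379.9 normalized CPM with IAA and 31.1 ± 5.80 without, and STE2, a mating type a gene, 283 ± 10.7 with IAA and 735 ± 46.5 without. Their part in the uptake genes' values was not tested.

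Of the other iron genes, TIS11 had 28.4, 33.1 and 32.0 normalized CPM with IAA and 11.8, 14.7 and 15.7 without, a rise of 2.21-fold (+1.15 ± 0.11, adjusted p = 1.01e-05). CCC2, for the pump that delivers copper to Fet3, rose 2.55-fold (+1.35 ± 0.09, adjusted p = 4.2e-07), with 121, 142 and 119.8 normalized CPM with IAA and 45.6, 49.9 and 54.3 without. The siderophore reductase gene FRE3 (+0.81 ± 0.07), ENB1 (+0.78 ± 0.09), the vacuolar iron exporter gene SMF3 (+0.69 ± 0.06) and HMX1 (+0.46 ± 0.12) rose too. FET4 fell 3.05-fold (−1.61 ± 0.10), and the copper genes CTR1 (−0.92 ± 0.14) and CTR3 (−0.69 ± 0.13) and the reductase gene FRE7 (−0.78 ± 0.17) fell. Of 10 genes for iron-requiring proteins 7 fell and 2 rose: BIO2 had −1.73 ± 0.11, RLI1, for an iron-sulfur protein of ribosome recycling, −0.80 ± 0.07 and LEU1 −0.53 ± 0.07. Of 15 genes of iron-sulfur cluster assembly 8 rose and 4 fell, from −0.72 (YAH1) to +0.63 (ISU2). AFT1 had −0.18 ± 0.07 (adjusted p = 0.0418) and AFT2 −0.05 ± 0.09 (adjusted p = 0.636); the AFT1 call was lost without replicate 1, 2 or 3 of the cells with IAA or replicate 1 or 3 of those without (adjusted p = 0.0514 to 0.155), and limma on TPM gave +0.05. Over the 58 listed genes 18 were called higher and 23 lower, with a median of −0.01. LEU2 fell as well, to 135–191 normalized CPM with IAA, against 503–766 without, and what treatment the cells without IAA had is not stated beyond the absence of IAA.

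**Figure D4:**
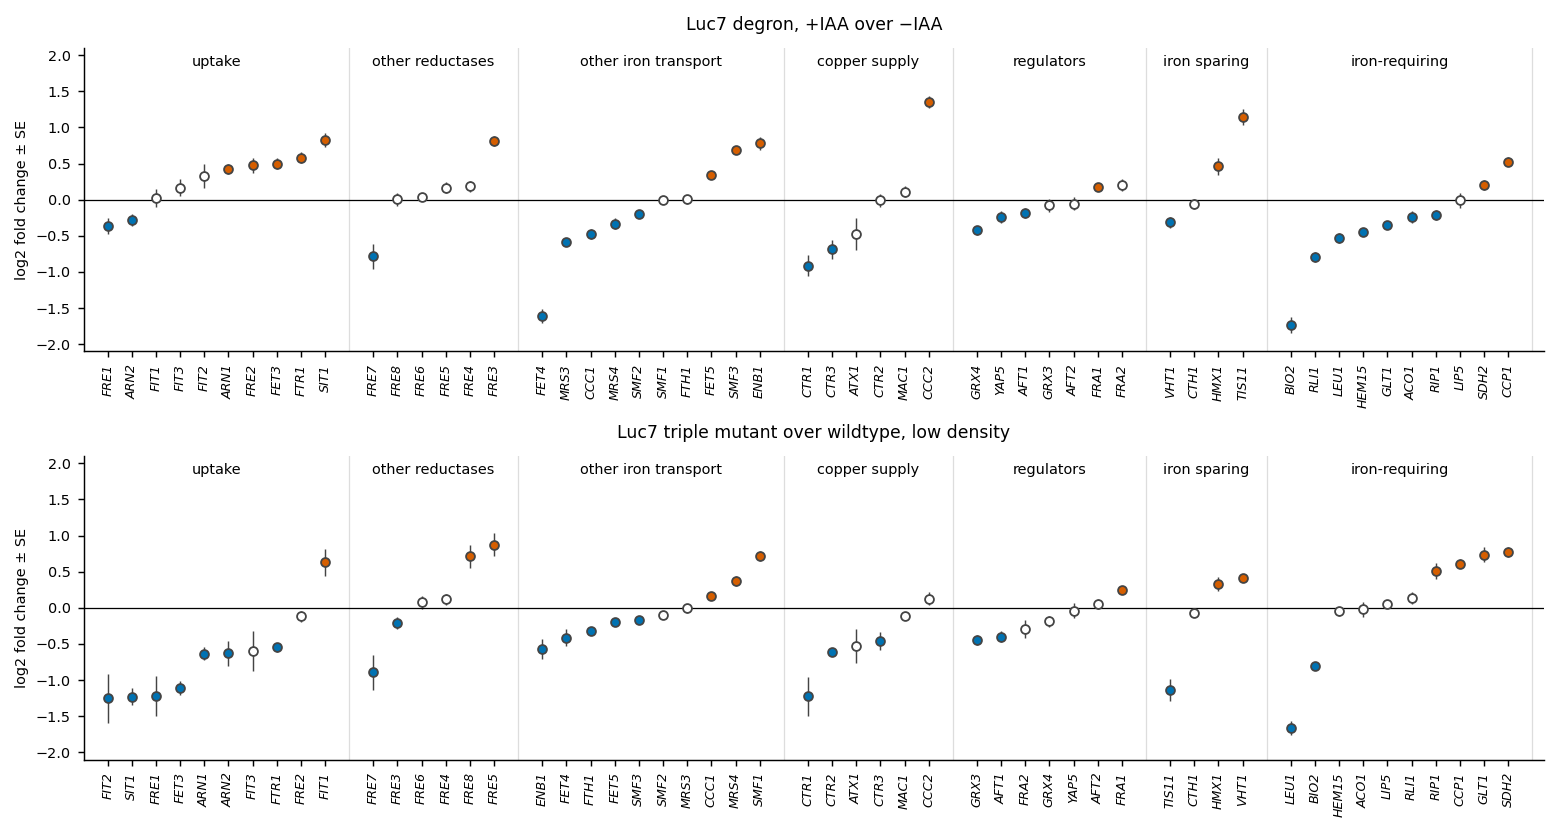
Log2 fold change ± SE of the 10 iron uptake genes and of 43 further iron and copper genes grouped by role, for the Luc7 degron with over without IAA (upper) and the Luc7 triple mutant over wildtype (lower); colours as for the uptake genes above. TIS11 and SIT1 lie high in the upper and low in the lower panel, and BIO2, CTR1 and FRE7 lie low in both; the panels use different strains and controls.

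Humanized cells differed from wildtype cells in few of these genes, and at low density few genes of any kind were called. Whether the 10 genes had fewer calls than the shares over all genes was not tested at either density. At low density 1 of the 10 fell, where edgeR called 3.88% of all genes lower and 2.67% higher: FRE2 had 17.2, 17.9 and 18.9 normalized CPM in humanized and 24.6, 23.1 and 21.037 in wildtype libraries (log2 fold change −0.35 ± 0.08, adjusted p = 0.0273). None of the 10 rose by edgeR or by DESeq2, and at an unadjusted p under 0.05 none rose and 3 were lower. The FRE2 call ended without any one of the humanized libraries or without wildtype replicate 1 (adjusted p = 0.0748 to 0.122). FIT1 (−0.53 ± 0.19, adjusted p = 0.103), FIT2 (−0.73 ± 0.34, adjusted p = 0.176) and FIT3 (−0.84 ± 0.28, adjusted p = 0.0876) had lower means without passing, with SEs of up to 0.34. FIT3 passed without wildtype replicate 3 (−1.03, adjusted p = 0.0231) and FIT1 without triple mutant replicate 3 (adjusted p = 0.0305). FET3 (−0.15 ± 0.10), FTR1 (−0.05 ± 0.07), ARN1 (−0.07 ± 0.09) and SIT1 (−0.10 ± 0.11) lay near 0. Medians were −0.26 over the 10 genes and 0.00 over all. TIS11 fell (−0.64 ± 0.15, adjusted p = 0.0319), a call that ended without humanized replicate 1 or 2, triple mutant replicate 3 or wildtype replicate 1 (0.0518 to 0.124). AFT1 (+0.01 ± 0.08) and AFT2 (+0.03 ± 0.07) were not called, and SDH2 (+0.38 ± 0.07) was the 1 gene called higher among the 58, a call lost without humanized replicate 2 (adjusted p = 0.0545). The triple mutant and the humanized strain were set against the same wildtype libraries, as was the wildtype at high density, so these comparisons share their controls.

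At high density 1 gene of the 10 was higher and 1 lower in humanized cells, where edgeR called 16.0% of all genes higher and 12.6% lower. FRE1 rose 1.51-fold (log2 fold change +0.60 ± 0.12, adjusted p = 0.0125), and ARN1 fell 1.33-fold (−0.42 ± 0.08, adjusted p = 0.0115). The FRE1 call ended without wildtype replicate 1 (adjusted p = 0.0564) and the ARN1 call without humanized replicate 1 (0.0530) or wildtype replicate 1 (0.0532). SIT1 (−0.45 ± 0.15, adjusted p = 0.0628) missed the threshold and passed it in DESeq2 (0.0192) and without wildtype replicate 3 (0.00508). Medians were −0.06 over the 10 genes and 0.00 over all. FRE7 rose 2.81-fold (+1.49 ± 0.16, adjusted p = 0.000977) and CTR1 1.69-fold (+0.75 ± 0.16, adjusted p = 0.0129), and CTR3 (+0.65 ± 0.12) and CCC2 (+0.41 ± 0.06) rose too. Of the regulators YAP5, which acts when iron is high, rose (+0.75 ± 0.10), as did AFT2 (+0.49 ± 0.11) and AFT1 (+0.27 ± 0.06), of which AFT2 lost its call without humanized replicate 1, 2 or 3 (adjusted p = 0.0503 to 0.0656) and AFT1 without humanized replicate 1 or 2 or wildtype replicate 1 (0.0595 to 0.103). TIS11 had +0.02 ± 0.26 (adjusted p = 0.967) and its relative CTH1 rose (+0.56 ± 0.07). Of 10 genes for iron-requiring proteins 4 rose and 2 fell, with a median of +0.02 and a range from −0.94 to +1.23. SDH2 (+1.23), RIP1 (+1.09) and the aconitase gene ACO1 (+1.02), all for mitochondrial iron proteins, were among those that rose. BIO2 was lower, at −0.53 to −0.30 over the alternative settings, and its call ended in 3 of these 15 (adjusted p of up to 0.0569). Of 15 genes of iron-sulfur cluster assembly 0 rose and 4 fell. The humanized cells were harvested at the higher OD600 and had the higher post-log markers here, and the part of either was not tested.

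The difference between humanized and wildtype cells itself differed between the experiments for 2 of the 10 genes, where edgeR called 9.84% of all genes in that direction and 8.02% in the other. FRE1 had an interaction of +0.79 ± 0.20 on the log2 scale (adjusted p = 0.0194) and FIT1 one of +0.74 ± 0.24 (adjusted p = 0.0496), both toward higher in humanized cells at high density. FRE1 lost its call without wildtype replicate 1 at high density (0.0554). FIT1 kept its call only without wildtype replicate 2 at high density or without humanized replicate 3 at high density among the 12 fits that left out 1 library, its adjusted p reaching 0.124. None of the 10 was called downward by edgeR, and 1, ARN1 (−0.34 ± 0.12), was lower at an unadjusted p under 0.05 and was called by DESeq2 (adjusted p = 0.0385).

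Among libraries of the same group, FIT2, FIT3, ARN2 and SIT1 varied together and FRE1 varied with CTR1, a pattern picked out after the values had been seen. The library with the least FIT2 was also the one with the least FIT3, ARN2 and SIT1 in 7 of 7 groups, and the library with the most FIT2 had the most ARN2 and SIT1 in 7 of 7 and the most FIT3 in 6. A few of these places rest on near ties. In wildtype cells at low density SIT1 had 128.8 normalized CPM in replicate 3 and 129.5 in replicate 2. With IAA ARN2 had 57.62 in replicate 1 and 57.83 in replicate 2. Of 5205 other genes with a mean of 10 CPM or more, 12 (0.231%) shared the lowest library with FIT2 in all 7 groups, FIT3, ARN2, SIT1 and TIS11 among them, and the median gene did in 2. FIT2 and FIT3 had the widest spread within groups, with median coefficients of variation of 34.0% and 26.7%, and ARN2 (9.93%) and SIT1 (11.0%) followed them with smaller steps. FRE1 did not go with this set, sharing the lowest library with FIT2 in 3 of 7 groups. It went with CTR1, which had both its lowest and its highest library where FRE1 had them in 7 of 7 groups, the one gene of 5205 to do so, while 2 shared the lowest library in all 7. Here too a place was close to a tie, as FRE1 had 113.5 and 113.3 in wildtype replicates 2 and 3 at high density. FRE7 shared the lowest library in 5 groups and the highest in 6. In the triple mutant, CTR1 had 58.5, 129 and 146 and FRE7 15.1, 26.1 and 29.9 normalized CPM, low in replicate 1 as FRE1 was. At high density CTR1 had 208, 152 and 156 in humanized and 85.5, 118 and 103 in wildtype libraries, against 269, 187 and 280.5 in humanized and 247, 288 and 242 in wildtype libraries at low density. With IAA CTR1 had 112, 78.8 and 101, against 189, 148 and 214 without. FRE7 had 71.1, 49.9 and 49.5 in humanized and 18.3, 21.6 and 20.997 in wildtype libraries at high density, against 47.2, 28.9 and 45.4 in humanized and 40.3, 53.1 and 38.5 in wildtype libraries at low density. The motifs did not divide the genes in the same way. The other 5 genes with TGCACCC shared the lowest library with FIT2 in 6 (ARN1), 5 (FTR1) and 4 groups (FET3, FIT1 and FRE2), and the highest in 5 (FRE2) or 3 groups. FTR1, which holds TTTGCTCA as well, shared the lowest library with FRE1 in 1 group.

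**Figure D5:**
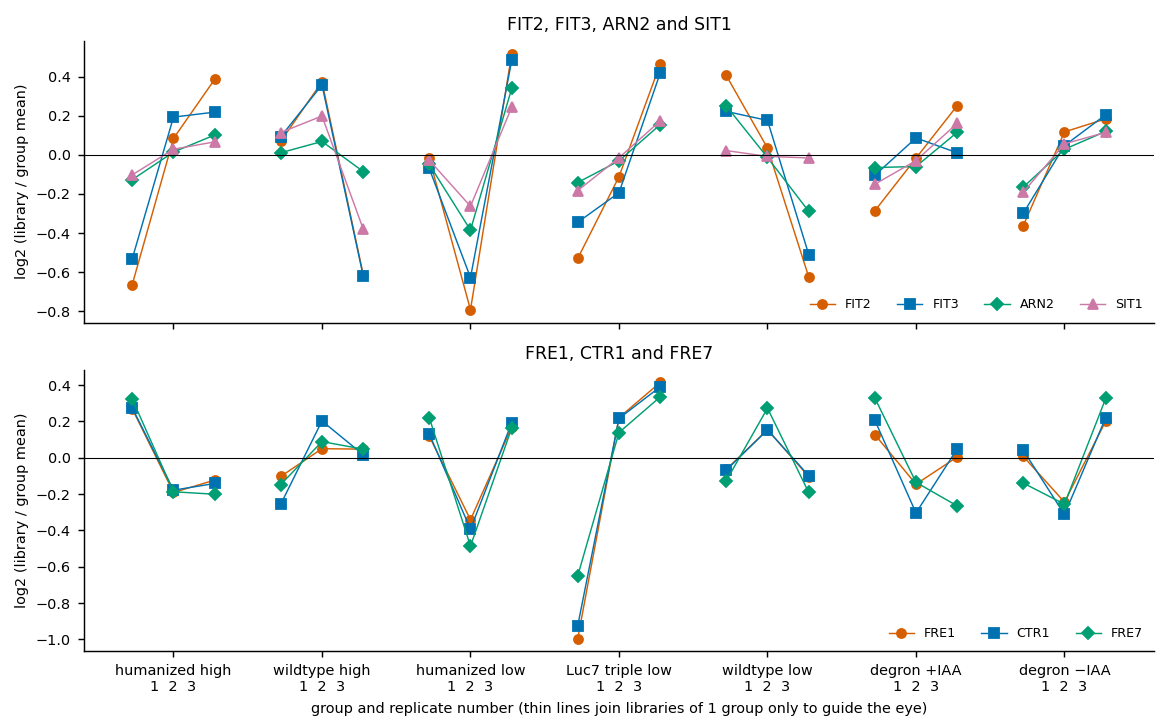
Log2 of each library over the mean of its own group (vertical axis), for FIT2, FIT3, ARN2 and SIT1 (upper) and FRE1, CTR1 and FRE7 (lower), libraries 1 to 3 within each of the 7 groups. Within a panel the genes mostly share their low and high libraries. The panels differ in humanized cells at high density, where replicate 1 is lowest in the upper and highest in the lower panel. In the triple mutant replicate 1 is lowest in both panels, and FRE1 and CTR1 are about 1 unit low there.

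Over the 7 group means the genes were alike to unequal degree. Each gene's correlation with the mean of the other 9 (Pearson, log2 normalized CPM, 7 groups that share strains and experiments) was 0.92 for FIT2, 0.87 for ARN1, 0.82 for FET3 and ARN2, between 0.69 and 0.78 for FIT3, SIT1, FRE2 and FRE1, −0.08 for FTR1 and −0.25 for FIT1. The 5 genes outside the 10 with the most similar profile, of 5196 with a mean of 10 CPM or more, were ENA1 (0.97), a sodium pump gene, GND1 (0.94), of the pentose phosphate pathway, TRR1 (0.94), a thioredoxin reductase gene, OYE2 (0.93) and ENB1 (0.93). With 7 points such values are a description. ENB1 averaged 86.0 ± 2.96 in humanized and 117 ± 8.04 normalized CPM in wildtype cells at high density, against 220.0 ± 40.5 and 271 ± 16.1 at low density, and the other 4 differed by smaller factors.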

How the data were processed

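Poly-A selected RNA was sequenced in 21 libraries, 3 in each of 7 groups named by the labels. The submitters' processing notes name cutadapt and Salmon 1.9 as tools and sacCer3 as the build; of strand setting and read layout the sources used here say nothing. Salmon's estimated counts and TPM over 6571 spliced coding sequences are what the authors deposited. The counts were rounded to whole numbers here. Tests used edgeR 4.0.16 in R 4.3.3 with TMM scaling, the filterByExpr filter and unblocked quasi-likelihood fits. A gene was called at a Benjamini-Hochberg adjusted p below 0.05 over all genes tested. One fit held the 3 low density groups, one the degron groups, one the high density groups, and one the 4 wildtype and humanized groups, for density and the interaction. Adjusted p-values are edgeR's unless another tool is named. Normalized CPM are TMM scaled over all 21 libraries, and TPM compare genes. Of 6571 sequences 5895 matched R64 by systematic name.

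The genes, lists, motifs and comparisons were chosen with earlier results of these data known. Beside the 10 genes, up to 3 called genes per list with the largest change could be named in each comparison, and AFT1, AFT2 and TIS11 always; CTR1 and FRE7 are followed in all groups after their values were seen. Whether replicate numbers pair libraries was checked by correlating deviations from the group means. These correlations ran from −0.43 to 0.56, and in no comparison were all 3 above 0.1, so the numbers were not taken as pairs. Alternatives were DESeq2's size factors, no count filter or one at 10 CPM on average, DESeq2 1.42.0 itself, limma 3.58.1 on log2(TPM + 1), other groups in the fit, the replicate number as a block, leaving out each library, an offset for length and GC content, and, added after seeing the data, library totals without TMM factors. The fits were tested on simulated data.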

Additional observations from a re-analysis of the deposited data

Results flagged for a closer look

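Humanized minus wildtype cells was more positive at high than at low density, by a test of the interaction, for FRE1 (0.79 on the log2 scale, adjusted p = 0.0194) and FIT1 (0.74, adjusted p = 0.0496) and, outside the 10 genes, for FRE7 (1.62, adjusted p = 0.00195) and CTR1 (0.84, adjusted p = 0.0305), all from edgeR's quasi-likelihood test with 3 libraries per group. FRE1 differed between humanized and wildtype cells by +0.60 at high and −0.18 at low density, FRE7 by +1.49 and −0.12, CTR1 by +0.75 and −0.08, and FIT1 by +0.20 and −0.53. The CTR1 call ended in 6 of 21 alternatives, with an adjusted p of up to 0.0952. Leaving out humanized replicate 1 or wildtype replicate 1 at high density ended it. So did leaving out humanized replicate 2 or wildtype replicate 1 or 2 at low density (adjusted p = 0.0532 to 0.0772 over these fits). The FRE7 call held in all 21 alternatives. That of FRE1 ended in 2 of 21 (adjusted p of up to 0.105). That of FIT1 ended in 13 of the 20 alternatives in which it was tested (adjusted p of up to 0.124). The OD600 of the humanized and wildtype cells differed at high density and not at low density, and its part was not tested.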

How the results depend on the processing

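Of the uptake genes, the number called in wildtype cells by density was 0 higher and 7 or 8 lower in all alternatives, and in the triple mutant 1 higher and 6 to 8 lower. For humanized cells at low density, the 1 gene lower became 2 in DESeq2 and 0 in limma, with only the groups compared and under the replicate block, and 0 to 2 with 1 library left out. At high density the 1 higher became 2 in limma and the 1 lower became 2 in DESeq2 and with all 7 groups in 1 fit and 0 in limma; leaving out 1 library gave 0 to 1 higher and 0 to 2 lower. With IAA, the 5 higher became 6 on library totals and under the replicate block, 7 in limma, and 5 to 6 with 1 library left out, and the 2 lower became 0 with all 7 groups, on library totals and in limma, 1 with the offset, and 0 to 2 with 1 library left out. In humanized cells by density the 1 higher became 2 in DESeq2, limma, with all 7 groups, on library totals, with the offset and with only the groups compared, and 1 to 2 with 1 library left out, with 6 to 8 lower. For the interaction, the 2 higher became 0 with all 7 groups and 1 with DESeq2's size factors or no filter. They became 1 with the 10 CPM filter as well, which removed FIT1 from the genes tested. The 0 lower became 1 in DESeq2 and with all 7 groups. Leaving out 1 library gave 0 to 2 higher and 0 to 1 lower. The causes of the other changes were not tested. The replicate block ended the calls of FRE2 and TIS11 at low density (adjusted p = 0.0604 each), of AFT1 with IAA (0.0672) and of FIT3 (0.0525), FRE2 (0.0537) and FRE7 (0.0682) in humanized cells by density, let FIT2 pass with IAA (0.0229), and changed no other call of a gene named here.

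Reversed directions touched values near 0. In limma on TPM, where the median of all genes lay between +0.13 and +0.28 in each comparison of groups and at +0.02 for the interaction, humanized cells at low density had +0.070 for ARN1, +0.11 for FTR1 and +0.034 for SIT1. In limma the triple mutant had +0.025 for FRE2, and the degron +0.054 for AFT1, +0.20 for AFT2 and +0.021 for ARN2. Wildtype cells by density had +0.0087 for AFT1, +0.025 for CCC2, +0.12 for FIT1 and +0.19 for FTR1, humanized cells +0.012 for FRE2, and the interaction of FIT2 was +0.16. On library totals, where that median lay at +0.12 with IAA, +0.20 in wildtype and +0.24 in humanized cells by density, FTR1 was at +0.0027 in humanized cells at low density and +0.17 in wildtype cells by density. AFT2 was then at +0.060 with IAA, FIT1 at +0.080 in wildtype cells by density, and the FIT2 interaction at +0.018. With the offset, AFT1 was at −0.075 in humanized cells at low density, and ARN2 at −0.030 and FET3 at −0.060 at high density. FIT1 was at −0.056 and FIT3 at −0.18 with IAA, FTR1 at +0.063 in wildtype cells by density, and the FIT2 interaction at +0.0086. With 1 library left out, humanized cells at low density had −0.080 to +0.060 for AFT1, −0.020 to +0.078 for AFT2 and −0.235 to +0.020 for SIT1, and the triple mutant −0.012 to +0.104 for AFT2. Humanized cells at high density had −0.00043 to +0.115 for ARN2, −0.107 to +0.124 for FET3 and −0.19 to +0.266 for TIS11. With IAA AFT2 had −0.115 to +0.081 and FIT1 −0.065 to +0.095, by density FTR1 had −0.090 to +0.056 in wildtype and AFT1 −0.035 to +0.056 in humanized cells, and the FIT2 interaction ran from −0.299 to +0.334.

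Over all genes, counts higher and lower at low density in humanized cells were 163 and 237, with DESeq2 431 and 431, with only the groups compared 63 and 141, with all 7 groups 95 and 107, with the block 88 and 150, 271 higher on library totals and 67 lower in limma. By density, wildtype cells had 1287 and 1393 (library totals 2419 and 610, limma 2290 and 564) and humanized cells 1704 and 1644 (2794 and 767, 2703 and 708). At high density, 978 and 774 became 1780 and 283 in limma, with 484 lower on library totals, 507 with the block, 1331 with the offset and 1308 with all 7 groups. With IAA, 2090 and 2111 became 3379 and 1120 in limma, in the triple mutant 772 lower against 1620, and for the interaction 269 lower, with 839 with the offset, against 493.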
